A study of Homo sapiens with 21 samples.

Results

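The WNT genes described here are 10 named members of the pathway, found by symbol among the 42339 genes of the count table: the ligands WNT5A and WNT5B, the receptors FZD7 and FZD8, the secreted inhibitors DKK1, DKK3 and SFRP1, the nuclear factors TCF7 and LEF1, and the feedback target AXIN2. All 10 were found, had a value in each library and were tested in each comparison. The counts come from 21 cultures of BT-549 cells, an established triple-negative breast cancer (TNBC) line, with 3 cultures in each of 7 groups and 38026597 to 99751717 counts per library. The tet-shRNA lines carry a doxycycline (DOX)-inducible hairpin and make up 4 groups: tet-MUC1shRNA mammospheres at passage 6 and tet-MYCshRNA mammospheres at passage 8, each with 0.1% DMSO as vehicle or 500 ng/ml DOX. The genotype is given as wild type in all groups. The others are 2D cells grown with serum, 3D cells (mammospheres at passage 6, grown in MammoCult medium in ultra-low attachment plates), and such 3D cells with 0.75 μM GO-203, a peptide inhibitor of MUC1-C. Medium and growth format change together between 2D and 3D cells and cannot be told apart. Each target was silenced with a single hairpin, and no library with DOX and a control hairpin was analysed here, so silencing and DOX itself cannot be told apart. Line, hairpin and passage also go together when the vehicle groups are set side by side.

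WNT ligands are secreted lipid-modified proteins that bind Frizzled (FZD) receptors. With LRP5 or LRP6 as co-receptor, canonical ligands protect β-catenin from destruction, and β-catenin then joins TCF/LEF factors on DNA to switch on targets such as AXIN2, which feeds back to restrain the pathway. WNT5A and WNT5B mainly act through β-catenin-independent routes that steer cell polarity and movement. DKK1 blocks the LRP co-receptors and SFRP1 captures WNT proteins outside the cell.

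Silencing was checked first. MUC1 was at 101, 82.5 and 85.3 CPM (a read count divided by its library's TMM-adjusted total) in the vehicle-treated tet-MUC1shRNA libraries and at 20.2, 21.7 and 23.1 with DOX. MYC was at 446, 425 and 382 CPM in the vehicle-treated tet-MYCshRNA libraries and at 239, 282 and 304 with DOX. Both targets were lower in each DOX library than in each vehicle library. MUC1 itself was at 67.5, 68.1 and 72.6 CPM in the vehicle-treated tet-MYCshRNA libraries and at 136, 196 and 171 with DOX. Without a hairpin, MUC1 was at 52.3, 57.7 and 55.6 CPM in 2D cells, between 177 and 219 in the 3D libraries and between 238 and 267 with GO-203, which targets the protein. MYC ran from 235 to 253 CPM in the vehicle-treated tet-MUC1shRNA libraries and from 271 to 299 with DOX. In cells with no hairpin its means were 87.1 CPM in 2D cells, 569 in 3D cells and 557 with GO-203. MYC silencing was thus partial, with a mean of 274.8 CPM against 417.5 with vehicle. The silenced libraries kept more MYC than any 2D library and overlapped the vehicle-treated tet-MUC1shRNA libraries. The mesenchymal markers VIM, CDH2 and ZEB1 were counted in each library, and VIM ran from 1067 to 2507 CPM. Its means were 2479 and 2219 CPM in the tet-MYCshRNA line with vehicle and DOX, and from 1083 to 1261 in the other groups. CDH2 had a mean of 451 CPM in 2D and 50.2 in 3D cells, and of 11.8 with vehicle and 75.1 with DOX in the tet-MUC1shRNA line, a fall and a rise like those of DKK1. ZEB1 had means of 95.7, 202.8, 320 and 121 CPM in the same 4 groups. In the tet-MYCshRNA line with vehicle and DOX, CDH2 had means of 22.2 and 26.1 CPM and ZEB1 of 250 and 283. The estrogen receptor gene ESR1 reached at most 1.49 CPM and the progesterone receptor gene PGR 0.0706, while ERBB2 ran from 18.2 to 42.3. The epithelial markers EPCAM, CDH1, KRT8 and KRT18 stayed at or below 1.55 CPM, but moved with the groups at these low levels. CDH1 had a mean of 1.45 CPM in 2D cells and was at 0 in each 3D library, and on MUC1 silencing the means went from 0.0414 to 1.36 CPM for KRT8 and from 0.0376 to 0.898 for KRT18. The blood marker PTPRC had means of 1.28 CPM in 2D and 0.0621 in 3D cells. The endothelial marker PECAM1 went the other way, from 0.0118 to 6.62 CPM, and on MYC silencing its mean was 9.40 against 6.79 with vehicle. The part of these markers in the results was not tested.

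Promoter sequence was available for 6 of the 10 genes in RefSeq's GRCh38.p14 table, as windows from 250 bases before to 50 after an annotated start. The 9 windows of these genes (DKK1, FZD8, LEF1, TCF7, WNT5A and WNT5B) were searched on both strands for CTTTGA, the core that TCF/LEF factors bind, and for CACGTG, the E-box that MYC binds, motifs that share no overlap. DKK1 held the core at 2 places and the other windows at none. Of all 35116 promoter windows in the table, 12.9% held the core at least once and 1.29% at 2 or more places. The E-box, found in 7.26% of all windows, was in none of the 9. A match describes letters and is not a measured binding site. The DKK1 window is shown because DKK1 rose most of the 10 genes on MUC1 silencing, and those of FZD8, TCF7 and WNT5A because these genes rose on silencing of either target. TCF7, WNT5A and WNT5B have 2 windows each in the table, and for TCF7 and WNT5A the upstream window is shown. Capitals mark the core or its reverse complement, TCAAAG, and each sequence runs 5′ to 3′ on the strand of its gene.
DKK1 (chr10:52314031-52314330, plus strand): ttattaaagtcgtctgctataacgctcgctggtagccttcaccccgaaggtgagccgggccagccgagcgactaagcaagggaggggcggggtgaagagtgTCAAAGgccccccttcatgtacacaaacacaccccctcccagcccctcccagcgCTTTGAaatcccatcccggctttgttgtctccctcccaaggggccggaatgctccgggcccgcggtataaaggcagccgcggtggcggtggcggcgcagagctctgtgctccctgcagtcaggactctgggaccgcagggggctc
FZD8 (chr10:35642247-35642546, minus strand): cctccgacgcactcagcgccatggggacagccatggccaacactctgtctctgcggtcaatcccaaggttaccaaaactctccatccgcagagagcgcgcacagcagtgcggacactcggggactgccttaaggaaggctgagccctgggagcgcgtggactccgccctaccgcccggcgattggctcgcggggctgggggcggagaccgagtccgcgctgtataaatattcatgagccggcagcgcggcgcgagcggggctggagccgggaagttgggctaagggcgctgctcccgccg
TCF7 (chr5:134115363-134115662, plus strand): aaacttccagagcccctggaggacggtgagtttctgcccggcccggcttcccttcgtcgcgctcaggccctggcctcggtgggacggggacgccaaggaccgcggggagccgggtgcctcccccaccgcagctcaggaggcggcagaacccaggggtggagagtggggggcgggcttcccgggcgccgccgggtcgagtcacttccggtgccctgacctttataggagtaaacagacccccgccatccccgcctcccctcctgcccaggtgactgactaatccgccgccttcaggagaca
WNT5A (chr3:55487257-55487556, minus strand): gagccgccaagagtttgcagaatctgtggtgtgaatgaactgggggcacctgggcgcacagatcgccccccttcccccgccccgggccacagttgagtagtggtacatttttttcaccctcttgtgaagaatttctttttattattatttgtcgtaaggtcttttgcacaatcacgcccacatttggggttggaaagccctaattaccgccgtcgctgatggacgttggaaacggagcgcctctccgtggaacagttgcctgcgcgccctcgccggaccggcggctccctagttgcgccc
In the DKK1 window the first base of the core lies at -95 from the start on the strand of the gene, and the match on the other strand begins at -149. In GENCODE's GRCh38 annotation, DKK1 spans chr10:52314281-52318042 and FZD8, a gene with a single exon, chr10:35638247-35642296, so these windows cover the 5′ ends of the genes. TCF7 (chr5:134114681-134151865) and WNT5A (chr3:55465715-55490539) have further starts upstream of the windows shown, which lie inside the annotated genes. The GC content of the windows shown was 63.7% for DKK1, 67.0% for FZD8, 69.7% for TCF7 and 56.3% for WNT5A, against a median of 58.7% over all windows. The downstream windows, not shown, had 61.0% for TCF7 and 63.7% for WNT5A.

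In 3D vs. 2D cells, mammospheres had less of the inhibitors, of FZD7, of WNT5A, of TCF7 and of AXIN2, and more WNT5B and FZD8. Of the 10 genes, 2 rose and 7 fell at an adjusted p below 0.1 in edgeR's quasi-likelihood test, whereas 32% of all 19190 genes tested rose and 31.7% fell. An absolute log2 fold change above 1.5 was also met by 4 of the 10 (SFRP1, DKK1, WNT5B and AXIN2), against 16.2% of all genes. Their median log2 fold change was -0.77 and that of all genes -0.01. Passing is thus common among all genes in this comparison. On MUC1 silencing, 6 of the 10 rose and 1 fell, where 30.7% of all genes rose and 31.6% fell, and 2 of them (DKK1 and FZD8) exceeded a log2 fold change of 1.5, met by 8.82% of all genes. On MYC silencing, 3 rose and 3 fell, with 30.3% and 28.1% of all genes in these directions, and 2 (SFRP1 and WNT5A) exceeded 1.5, met by 10.5%. With GO-203, 1 of the 10 rose and 3 fell, beside 11.1% and 12.9% of all genes. None of the 10 exceeded 1.5 there, a size reached by 0.757% of all genes. The 3D libraries serve as controls for GO-203 and as the treated side against 2D cells, so these comparisons are not independent. Groups without overlap are common too. They were seen for 64.3% of all genes in 3D vs. 2D cells, 62.8% on MUC1 silencing, 59.7% on MYC silencing and 33.7% with GO-203. Of the 10 genes, 9, 8, 6 and 6 had such groups in these comparisons.

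**Figure D1:**
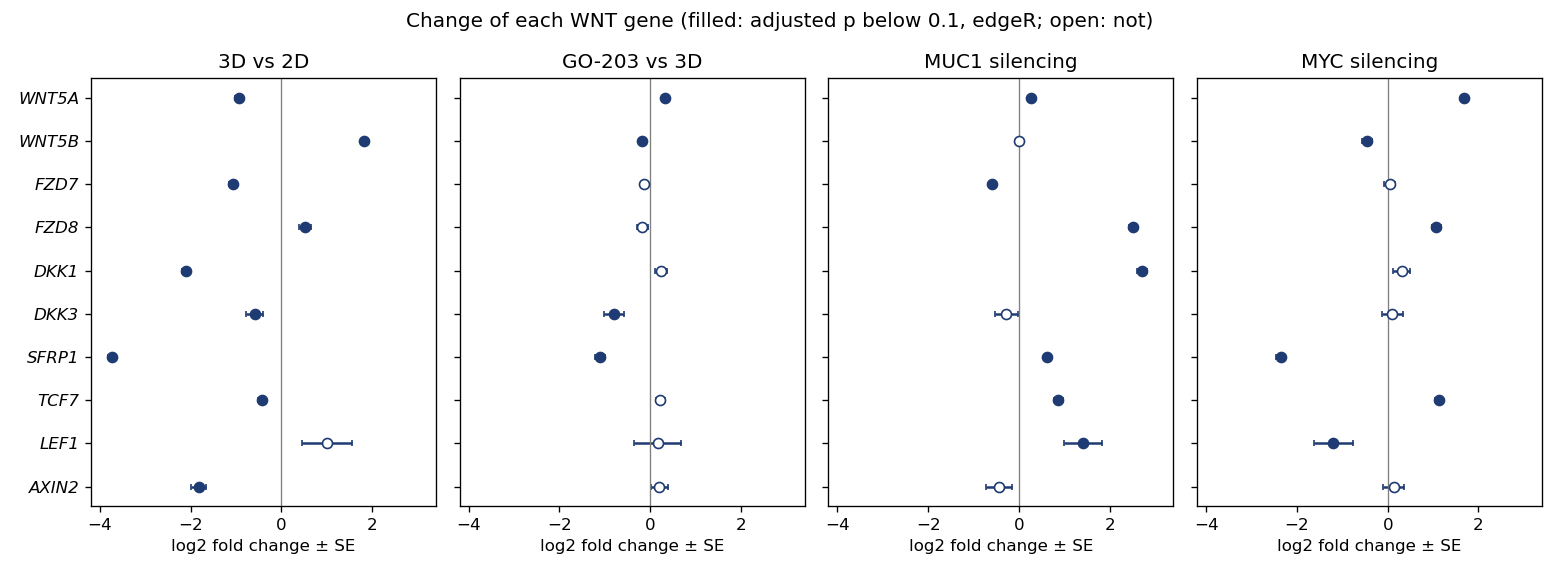
Log2 fold change of each of the 10 WNT genes (horizontal axis, with the SE) in the 4 comparisons; filled points had an adjusted p below 0.1 over all genes tested, open points did not. SFRP1 had the lowest value, at -3.74 in 3D vs. 2D cells, and DKK1 the highest, at 2.71 on MUC1 silencing.

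SFRP1 changed more than any other of the 10 genes across the groups. It was counted at 164, 187 and 203.1 CPM in the 2D libraries and at 13.1, 14.2 and 12.6 in the 3D libraries (log2 fold change -3.74, standard error [SE] 0.08, edgeR adjusted p = 9.78e-16). GO-203 lowered it further, to 6.32, 5.43 and 6.57 CPM (log2 fold change -1.10, SE 0.11, edgeR adjusted p = 1.6e-07). Neither pair of groups overlapped, and both steps were toward less inhibitor RNA. Less RNA per cell and fewer cells with the RNA cannot be told apart in these bulk libraries, for SFRP1 or for any gene below.

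The tet lines started from higher SFRP1 levels and moved in opposite directions. With vehicle, the tet-MUC1shRNA libraries had 28.1, 26.1 and 29.0 CPM and the tet-MYCshRNA libraries 76.95, 75.8 and 79.9, against 14.2 or less in untransduced 3D cells. MUC1 silencing raised SFRP1 to 44.8, 43.7 and 40.1 CPM (log2 fold change 0.62, SE 0.06, edgeR adjusted p = 1.76e-08). MYC silencing lowered it to 13.9, 17.3 and 14.8 CPM (log2 fold change -2.36, SE 0.09, edgeR adjusted p = 3e-08). After MYC silencing the level therefore lay in the range next to 3D cells, and these groups overlapped. The vehicle groups, which share no silencing, differed from each other by more than their spread. Ordered by mean, the groups ran from 2D cells at 185 CPM to GO-203-treated cells at 6.11, a ratio of 30.2, and 1 of the 6 neighbouring pairs overlapped.

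DKK1, the LRP-blocking inhibitor whose promoter window holds the TCF/LEF core at 2 places, stood at 23.5, 25.1 and 26.5 CPM in the 2D libraries and at 5.85, 5.85 and 5.21 in the 3D libraries. It fell by 2.10 on the log2 scale (SE 0.09, edgeR adjusted p = 9.26e-12). On MUC1 silencing it went from 2.20, 2.75 and 2.59 to 17.3, 16.7 and 16.2 CPM (log2 fold change 2.71, SE 0.11, edgeR adjusted p = 1.16e-14). The silenced cultures thus had more DKK1 than any untransduced mammosphere, and less than any 2D culture. MYC silencing gave 2.83, 3.71 and 2.63 CPM against 2.22, 2.72 and 2.37 with vehicle, groups that overlapped (log2 fold change 0.31, SE 0.18, edgeR adjusted p = 0.184). GO-203-treated libraries had 6.61, 5.33 and 7.60 CPM and overlapped with 3D cells as well (log2 fold change 0.23, SE 0.14, edgeR adjusted p = 0.278). PRKG1-AS1, on the opposite strand, covers 10.2% of the DKK1 exon bases.

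DKK3, a divergent member of the Dickkopf family, had 42 to 192 counts per library. The 2D libraries had 3.08, 3.17 and 2.95 CPM, the 3D libraries 1.97, 1.77 and 2.11, and the GO-203 libraries 1.15, 1.08 and 1.11. The 3 groups did not overlap. DKK3 fell by 0.59 on the log2 scale in 3D cells (SE 0.18, edgeR adjusted p = 0.00896) and by a further 0.79 with GO-203 (SE 0.22, edgeR adjusted p = 0.0142). In the tet lines DKK3 ran from 0.967 to 1.4 CPM under the MUC1 hairpin and from 1.503 to 2.85 under the MYC hairpin, vehicle and DOX together. Silencing of MUC1 or MYC gave log2 fold changes of -0.28 (SE 0.25) and 0.10 (SE 0.24), neither past the test (edgeR adjusted p = 0.355 and 0.745). USP47, on the opposite strand, covers 47.5% of the DKK3 exon bases, and the strand setting of the counting is not given in the sources used here, so the level of DKK3 is uncertain.

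**Figure D2:**
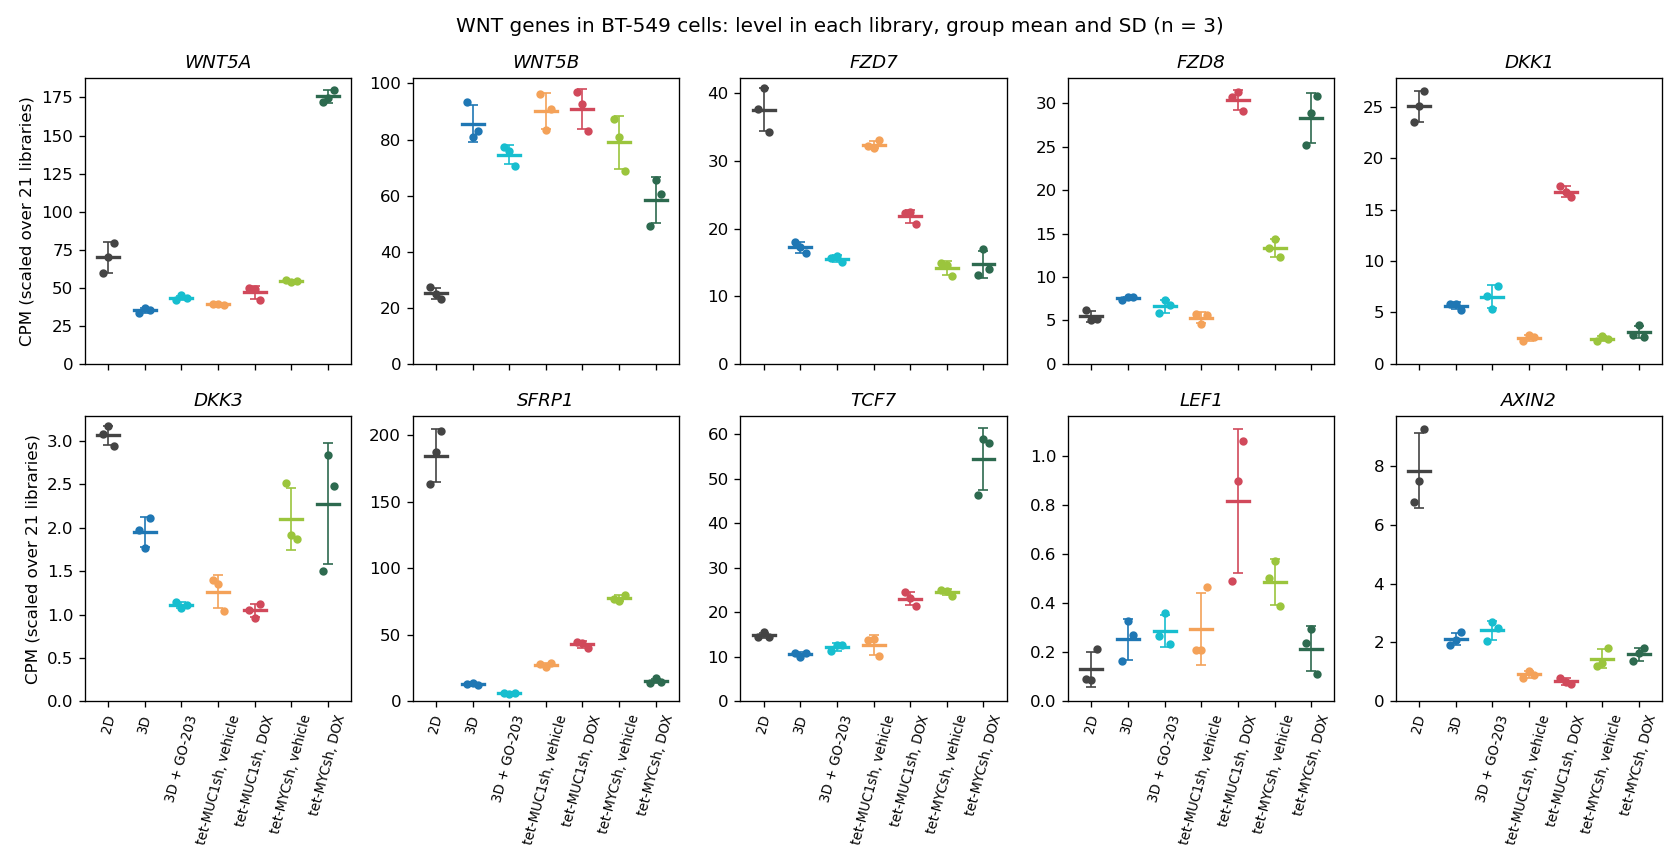
CPM of each of the 10 WNT genes (vertical axis, starting at 0, scaled over the 21 libraries) in the 7 groups; points are libraries, bars the group mean and whiskers the SD (n = 3). SFRP1, DKK1, DKK3, FZD7 and AXIN2 have their highest mean in 2D cells, and WNT5B and LEF1 their lowest, LEF1 with overlap with the next group.

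Of the ligands, WNT5A was at 59.6, 70.2 and 79.6 CPM in the 2D libraries and at 33.0, 36.7 and 35.3 in the 3D libraries, a fall of the log2 level by 0.94 (SE 0.08, edgeR adjusted p = 7.01e-08). WNT5B moved the other way, from 27.3, 24.8 and 23.1 CPM to 93.2, 80.8 and 83.1 (log2 fold change 1.83, SE 0.08, edgeR adjusted p = 5.84e-12). The groups did not overlap for either ligand. GO-203-treated cells had slightly more WNT5A, at 42.0, 44.8 and 43.3 CPM (log2 fold change 0.33, SE 0.06, edgeR adjusted p = 0.000414). WNT5B was at 77.2, 75.8 and 70.7 CPM there (log2 fold change -0.18, SE 0.07, edgeR adjusted p = 0.0554). That small fall did not pass without 3D replicate 1 (-0.12) or without GO-203 replicate 3 (-0.14).

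On MYC silencing, WNT5A went from 54.7, 53.7 and 54.1 to 172, 175 and 180 CPM (log2 fold change 1.68, SE 0.06, edgeR adjusted p = 1.25e-08). The silenced libraries were above those of the 6 other groups. WNT5B fell in the same libraries, from 87.3, 80.8 and 68.8 to 49.2, 65.5 and 60.5 CPM (log2 fold change -0.45, SE 0.11, edgeR adjusted p = 0.00436). MUC1 silencing raised WNT5A from 39.1, 39.2 and 38.7 to 49.98, 48.8 and 41.7 CPM (log2 fold change 0.26, SE 0.06, edgeR adjusted p = 0.000833). Scaling by library size alone gave 0.42 for this rise. WNT5B had 96.2, 83.4 and 90.8 CPM with vehicle and 96.9, 92.8 and 83.0 with DOX in that line (log2 fold change 0.00, SE 0.05, edgeR adjusted p = 0.976). The antisense gene WNT5A-AS1 shares no exon base with WNT5A and lay at 4.03 to 5.78 CPM after MYC silencing, against 0.581 to 2.31 in the other groups.

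Per kilobase of merged exons, which allows levels of different genes to be compared, the balance between the ligands reversed between groups. In 2D cells the ratio of WNT5B to WNT5A, both in CPM per kilobase, was 0.772, 0.597 and 0.490. In 3D cells it was 4.76, 3.72 and 3.97, so WNT5B was the more abundant ligand there. GO-203-treated cells had ratios of 3.10, 2.85 and 2.76. The tet-MUC1shRNA line kept high ratios, from 3.59 to 4.15 with vehicle and from 3.21 to 3.35 with DOX. In the tet-MYCshRNA line the ratio was 2.69, 2.54 and 2.15 with vehicle and 0.482, 0.633 and 0.566 with DOX, values that overlapped those of 2D cells. MYC RNA itself stayed higher in these DOX-treated libraries than in 2D cells. Since the ratio is taken within a library, it does not depend on how libraries were scaled, but it does depend on the annotated exon lengths, 7153 bases for WNT5A and 4240 for WNT5B.

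**Figure D3:**
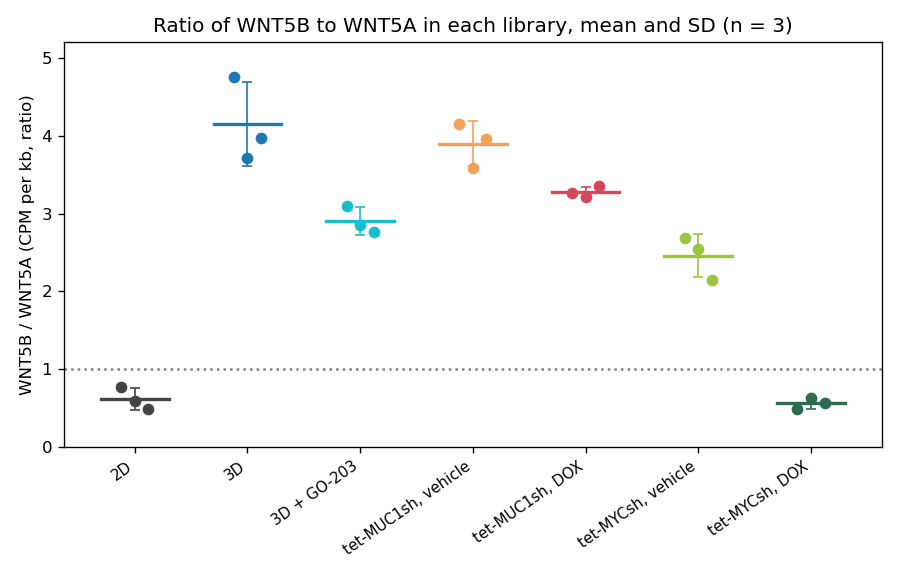
Ratio of WNT5B to WNT5A (vertical axis, CPM per kilobase of merged exons) in each of the 21 libraries by group, with the group mean and SD (n = 3); the dotted line marks equal levels. The 2D libraries and the DOX-treated tet-MYCshRNA libraries lie below 1, between 0.482 and 0.772, and the other libraries between 2.15 and 4.76.

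The Frizzled receptors parted on MUC1 silencing. FZD8 went from 5.71, 4.60 and 5.58 CPM with vehicle to 30.7, 31.4 and 29.2 with DOX (log2 fold change 2.51, SE 0.09, edgeR adjusted p = 1.05e-15). FZD7 fell in the same libraries, from 32.2, 32.0 and 33.1 to 22.2, 22.5 and 20.6 CPM (log2 fold change -0.58, SE 0.06, edgeR adjusted p = 5.16e-08). With vehicle FZD7 was the higher of the pair per kilobase, at 7.07 ± 0.127 against 1.31 ± 0.150 CPM per kilobase (SD, n = 3 each), and with DOX FZD8 was, at 7.51 ± 0.279 against 4.75 ± 0.220. MYC silencing also raised FZD8, from 13.3, 14.4 and 12.3 to 25.2, 28.9 and 30.9 CPM (log2 fold change 1.07, SE 0.10, edgeR adjusted p = 7.43e-06). FZD7 had 14.8, 14.6 and 12.9 CPM with vehicle and 13.1, 16.9 and 14.1 with DOX there, groups that overlapped (log2 fold change 0.04, edgeR adjusted p = 0.79). After silencing, the FZD8 levels of the tet lines overlapped, although their vehicle levels did not.

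In 3D vs. 2D cells, FZD7 fell from 37.7, 40.8 and 34.3 to 18.0, 17.3 and 16.4 CPM (log2 fold change -1.07, SE 0.08, edgeR adjusted p = 6.92e-09). FZD8 rose from 6.22, 5.00 and 5.13 to 7.31, 7.68 and 7.62 CPM (log2 fold change 0.53, SE 0.13, edgeR adjusted p = 0.00236). GO-203 moved neither past the test, with log2 fold changes of -0.13 for FZD7 and -0.17 for FZD8 (edgeR adjusted p = 0.313 and 0.38). FZD7 was higher in the vehicle-treated tet-MUC1shRNA line than in 3D cells without overlap, another gene for which the mammosphere groups had different starting levels.

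TCF7, which encodes a TCF/LEF partner of β-catenin, rose on silencing of either target. It went from 13.8, 13.97 and 10.1 to 24.5, 23.3 and 21.4 CPM on MUC1 silencing (log2 fold change 0.86, SE 0.10, edgeR adjusted p = 1.37e-07). On MYC silencing it went from 25.1, 24.7 and 23.7 to 46.3, 58.8 and 58.1 CPM (log2 fold change 1.13, SE 0.09, edgeR adjusted p = 3.12e-06). Vehicle levels differed between the lines, and the MUC1-silenced libraries overlapped the vehicle-treated tet-MYCshRNA libraries. It was slightly lower in 3D than in 2D cells, at 10.9, 10.0 and 10.8 against 14.5, 15.5 and 14.5 CPM (log2 fold change -0.44, edgeR adjusted p = 0.00062). GO-203-treated cells had 11.2, 12.7 and 12.6 CPM (log2 fold change 0.22, edgeR adjusted p = 0.123). Gene counts do not separate the TCF7 isoforms with and without the β-catenin-binding part.

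LEF1, its relative, had 4 to 63 counts per library, the lowest range of the 10 genes, and no group mean above 0.815 CPM. That mean, in the MUC1-silenced libraries, was above the AXIN2 mean of 0.679 there. On MUC1 silencing it went from 0.207, 0.210 and 0.465 to 0.490, 0.896 and 1.06 CPM (log2 fold change 1.41, SE 0.42, edgeR adjusted p = 0.00687). On MYC silencing it went down, from 0.500, 0.570 and 0.387 to 0.237, 0.295 and 0.113 CPM (log2 fold change -1.20, SE 0.43, edgeR adjusted p = 0.0398). The latter fall did not pass without vehicle replicate 2 (-1.09) or without DOX replicate 3 (-0.87). In 3D vs. 2D cells the log2 fold change of 0.996 had a SE of 0.55 and did not pass (edgeR adjusted p = 0.138), except without 2D replicate 3 (1.54). All 6 neighbouring pairs of groups in its order of levels overlapped. LEF1-AS1, which covers 5.204% of the LEF1 exon bases from the opposite strand, had at most 6 counts in a library.

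AXIN2, the feedback target, was highest in 2D cells, at 6.76, 7.48 and 9.24 CPM, and fell to 1.93, 2.08 and 2.35 in 3D cells (log2 fold change -1.82, SE 0.16, edgeR adjusted p = 4.84e-08). The tet-MUC1shRNA line was lower still, at 0.804, 1.03 and 0.910 CPM with vehicle and 0.798, 0.654 and 0.586 with DOX (log2 fold change -0.44, SE 0.29, edgeR adjusted p = 0.216). The tet-MYCshRNA line had 1.22, 1.30 and 1.82 CPM with vehicle and 1.37, 1.63 and 1.81 with DOX (log2 fold change 0.14, SE 0.23, edgeR adjusted p = 0.652). Under GO-203 it was at 2.06, 2.69 and 2.51 CPM (log2 fold change 0.20, SE 0.19, edgeR adjusted p = 0.537). AXIN2 thus passed in neither silencing comparison. In the tet-MUC1shRNA line it had 26 to 47 counts per library, and the vehicle and DOX values did not overlap although the test was not passed. A same-strand gene, ENSG00000266076, covers 25.3% of the AXIN2 exon bases, and how reads shared by both were counted is not given in the sources used here.

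The difference between the MUC1 and MYC silencing effects was tested over the 12 tet libraries. It passed an adjusted p of 0.1 for 7 of the 10 genes, 5 with a difference above 0 and 2 below, where 26% and 26.9% of 21585 genes did. SFRP1 differed most, by 2.96 on the log2 scale (SE 0.11, edgeR adjusted p = 9.75e-13), and its effects had opposite signs. LEF1 also had effects of opposite sign, with a difference of 2.61 (SE 0.63, edgeR adjusted p = 0.00224). DKK1 differed by 2.40 (edgeR adjusted p = 2.08e-08) and FZD8 by 1.43 (edgeR adjusted p = 8.7e-08). FZD8 rose in both lines and more on MUC1 silencing, whereas DKK1 passed on MUC1 silencing and not on MYC silencing. WNT5A differed by -1.44 (edgeR adjusted p = 1.65e-10), with the larger rise on MYC silencing. For TCF7 the difference was -0.29 (SE 0.15, edgeR adjusted p = 0.136), which did not pass here and passed without tet-MUC1shRNA vehicle replicate 3 (-0.43) or without tet-MYCshRNA DOX replicate 1 (-0.38).

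**Figure D4:**
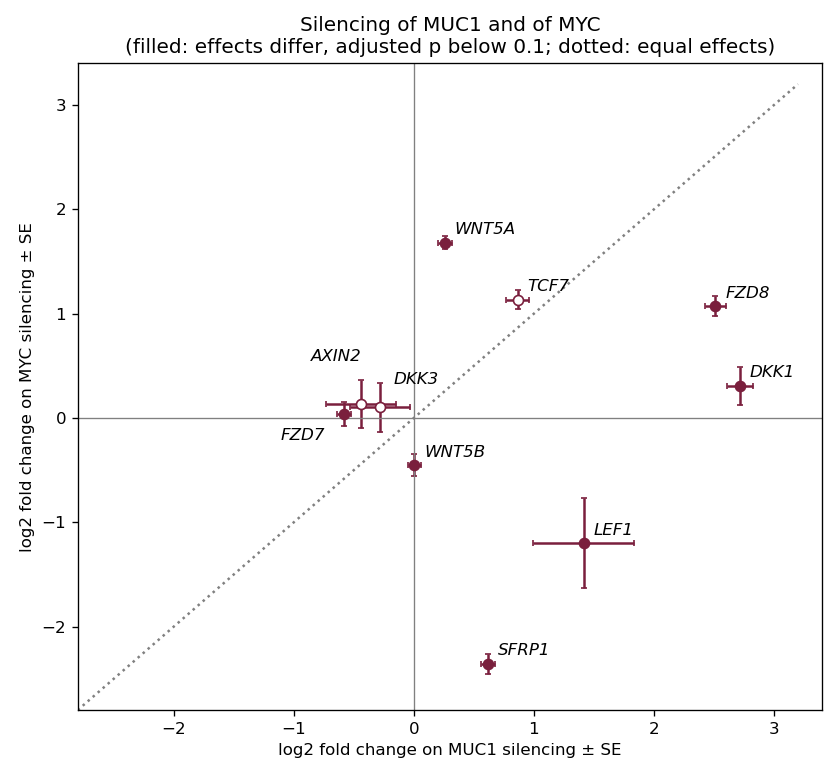
Log2 fold change of each WNT gene on MUC1 silencing (horizontal axis) and on MYC silencing (vertical axis), with SEs; filled points have effects that differ at an adjusted p below 0.1 in edgeR's interaction test, and the dotted line marks equal effects. WNT5A, FZD8 and TCF7 passed above 0 on both axes, DKK1 lies at 2.71 and 0.31 without passing on MYC silencing, and SFRP1 (0.62 and -2.36) and LEF1 (1.41 and -1.20) passed with opposite signs.

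Levels per kilobase averaged over the groups ran from 17 CPM per kilobase for WNT5B to 0.066 for LEF1. SFRP1 (11.1) and WNT5A (9.26) followed WNT5B, then FZD7 (4.78), DKK1 (3.98), FZD8 (3.42) and TCF7 (2.15), with AXIN2 (0.467) and DKK3 (0.153) near the low end. Across the 21 libraries, the pairs with the highest Pearson correlations of log2 CPM were WNT5A with TCF7 (0.86) and FZD8 with TCF7 (0.82), and the lowest was that of WNT5B with AXIN2 (-0.85). The gene with the pattern most like WNT5A was VPS41 (0.97), and for WNT5B it was CITED4 (0.98). THBS1 was nearest to DKK1 (0.98), ITPR2 to SFRP1 (0.98), MEST to AXIN2 (0.97), WWC3 to TCF7 (0.96), ADH5 to FZD7 (0.96), USF1 to DKK3 (0.93) and ENSG00000287158 to FZD8 (0.97). The points are 21 libraries in 7 groups, and these coefficients are descriptions of shared patterns across the same libraries. LEF1 was below the mean of 1 CPM set for this search.

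Of 88 genes listed for the wider pathway, 78 are not among the 10, and 73 of these 78 were in the table. In 3D vs. 2D cells, 22 of the 51 tested rose and 20 fell, beside 32% and 31.7% of all genes, and the listed genes had a median log2 change of 0.07 against -0.01 over all genes. WNT16, a ligand, had 0 counts in each 2D library and 105 to 131 in 3D libraries, at least 37.7-fold higher against a floor of 3 counts per library. APCDD1, a membrane inhibitor and WNT target, went from 29.5 ± 3.74 CPM in 2D cells to 0.150 ± 0.0949 in 3D cells (log2 fold change -7.54, edgeR adjusted p = 2.71e-14). RSPO3, an R-spondin that enhances WNT signaling, went from 7.98 ± 1.28 to 0.180 ± 0.108 CPM (log2 fold change -5.53, edgeR adjusted p = 8.09e-11). These means are given with the SD of 3 libraries, and the named falls include an inhibitor and an enhancer.

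On MUC1 silencing, 17 of 51 such genes rose and 19 fell, beside 30.7% and 31.6% of all genes, and the listed genes had a median log2 change of 0.00 beside 0.02 over all genes. The ligand WNT7B went from 0.267 ± 0.0506 to 3.80 ± 0.403 CPM (log2 fold change 3.82, edgeR adjusted p = 2.26e-11) and RSPO3 from 0.868 ± 0.236 to 4.34 ± 0.530 (2.34, edgeR adjusted p = 4.58e-09). RSPO2, another R-spondin, fell from 155 ± 16.5 to 36.7 ± 0.873 CPM (log2 fold change -2.08, edgeR adjusted p = 2.09e-16). On MYC silencing, 28 of 52 rose and 12 fell, beside 30.3% and 28.1% of all genes, with a median of 0.33 beside 0.01 over all genes. SFRP2, a relative of SFRP1, rose from 21.7 ± 3.18 to 168 ± 25.2 CPM (log2 fold change 2.96, edgeR adjusted p = 6.24e-08) in the libraries in which SFRP1 fell. The receptor FZD4 rose from 2.72 ± 0.513 to 9.19 ± 1.99 CPM (log2 fold change 1.75, edgeR adjusted p = 2.81e-05) and the ligand WNT10B fell from 2.50 ± 0.351 to 0.460 ± 0.287 (-2.47, edgeR adjusted p = 0.000188). With GO-203, 8 of 50 rose and 10 fell, beside 11.1% and 12.9% of all genes, with a median of 0.00 against 0.02 over all genes. TNFRSF19 fell from 1.63 ± 0.334 to 0.570 ± 0.188 CPM (log2 fold change -1.53, edgeR adjusted p = 0.000665), WNT16 from 2.18 ± 0.341 to 1.17 ± 0.298 (-0.88, edgeR adjusted p = 0.0106), and WNT4 rose from 1.36 ± 0.0707 to 2.26 ± 0.125 (0.73, edgeR adjusted p = 0.0154). All of these means are given with the SD of 3 libraries.

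**Figure D5:**
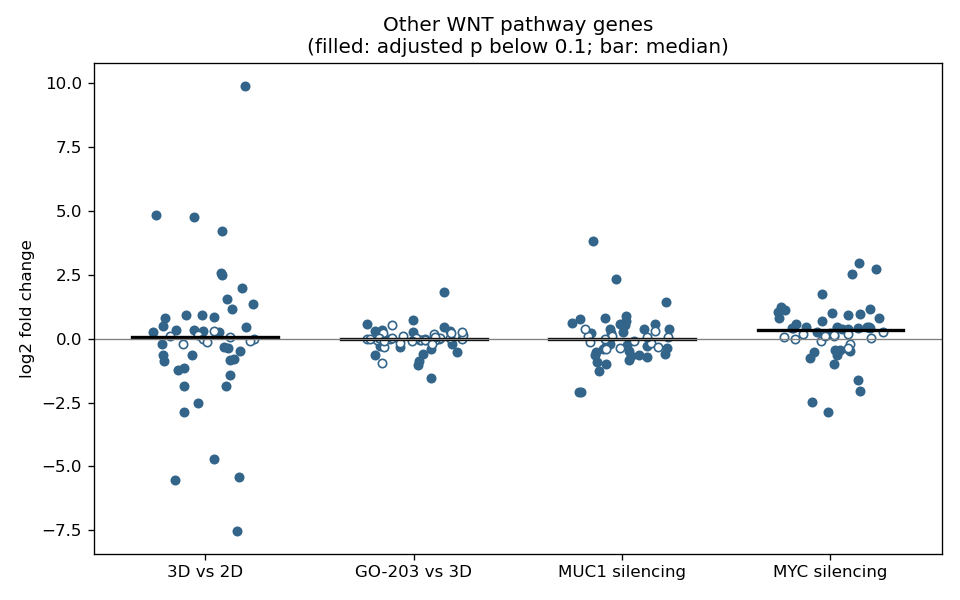
Log2 fold change (vertical axis) of the tested WNT pathway genes outside the 10, in the 4 comparisons; filled points had an adjusted p below 0.1 and bars mark medians. The 51 genes of 3D vs. 2D cells spread widest, from APCDD1 at -7.54 to WNT16, whose fitted value depends on the prior count because its 2D libraries are at 0.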

How the data were processed

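RNA was measured as stranded, paired-end mRNA libraries from cultures grown in triplicate. The authors aligned reads to GRCh38 with STAR (2.7.3a in the submitters' processing notes, another release in the methods) and deposited raw counts per gene from featureCounts. The annotation release, strand setting and treatment of multi-mapping reads are not given in the sources used here. Empty cells, which were blank over whole blocks of libraries and in none of the 10 WNT genes, were read as 0. Symbols came from the Ensembl identifiers without version (42252 of 42339 matched), and positions and exon lengths from GENCODE.

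The 6 libraries of a comparison were fitted alone with edgeR 4.0.16 (R 4.3.3), using filterByExpr, TMM factors and its quasi-likelihood test, and p-values were adjusted by Benjamini-Hochberg over all genes tested, with standard errors taken as the absolute log2 fold change over the square root of F. A gene passed at an adjusted p below 0.1, the study's false discovery rate, and a second count added an absolute log2 fold change above 1.5. CPM values were scaled over 21 libraries, except for the named genes of the wider list, whose means rest on the 6 libraries compared. The p-values measure the spread between cultures of 1 cell line. No replicate pair was as close as sampling noise allows (chi-square per degree of freedom 4.13 to 45.6 over 21 pairs). The highest values, 45.6 and 31.5, were those of replicate 1 of the DOX-treated tet-MYCshRNA libraries with replicates 2 and 3. The 10 genes and the wider list, written from textbook knowledge, were chosen with earlier results of these data known. The 10 genes were named throughout, beside the 3 genes of the wider list with the largest passing change and a mean of at least 1 CPM in each comparison, and the gene with the most similar pattern. Steps were tested on simulated data. Alternatives were DESeq2 1.42.0, RLE factors, library size alone, no low-count filter, a minimum of 10 counts per library, a joint fit of the 21 libraries, a block for the replicate number, an adjusted p below 0.05, and leaving out each library.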

Additional observations from a re-analysis of the deposited data

Results flagged for a closer look

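For 7 of the 10 WNT genes (6 to 9 under the alternatives, 7 to 8 with single libraries left out) the effect of MUC1 silencing differed from that of MYC silencing in edgeR's interaction test over 12 libraries, a test that 26% of all 21585 genes passed with a difference above 0 and 26.9% with one below 0. As the MUC1 effect minus the MYC effect on the log2 scale, the differences were 2.96 for SFRP1, 2.61 for LEF1, 2.40 for DKK1, 1.43 for FZD8, 0.44 for WNT5B, -0.64 for FZD7 and -1.44 for WNT5A. SFRP1 and LEF1 changed in opposite directions. LEF1 had only 4 to 63 counts per library, and its fall on MYC silencing did not pass without vehicle replicate 2 or without DOX replicate 3. The lines also differ in hairpin and passage, which go together with the silenced target and cannot be told apart from it here.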

How the results depend on the processing

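The counts of passing WNT genes, of passing genes of the wider list and of all passing genes stayed within 1.5 times their main values under each alternative. Over the 8 alternatives other than leaving out a library, 9 of the 10 WNT genes passed in 3D vs. 2D cells, 3 to 4 with GO-203, 6 to 8 on MUC1 silencing, 5 to 7 on MYC silencing and 6 to 9 for the difference of the silencing effects. Leaving out single libraries gave 9 to 10, 3 to 5, 7, 5 to 6 and 7 to 8. The replicate block, the number in the labels as a term, gave 9, 4, 7 and 6 genes and 7 for the difference of the silencing effects, and changed none of the 50 calls. Same-numbered cultures showed no shared deviation, with mean correlations of -0.02, 0.06, 0.02 and -0.10 in the 4 comparisons. With 3 cultures per group this does not exclude a pairing.

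Of 755 values of single genes under the alternatives, 732 kept their direction and side of the threshold, 8 changed sign, and each of the 8 belongs to a gene that did not pass. LEF1 with GO-203 was -0.060 without 3D replicate 1 and -0.019 without GO-203 replicate 2, in a range from -0.060 to 0.378 over single libraries left out. WNT5B on MUC1 silencing was -0.021 with all 21 libraries in one fit, -0.058 without vehicle replicate 2 and -0.028 without DOX replicate 1 (range -0.058 to 0.046). On MYC silencing, FZD7 was -0.029 without vehicle replicate 3 and -0.072 without DOX replicate 2 (range -0.072 to 0.098), and DKK3 -0.087 without DOX replicate 2 (range -0.087 to 0.309). WNT5B with GO-203 also did not pass with all libraries in one fit or at an adjusted p below 0.05, and DKK1 passed there without GO-203 replicate 2 (0.356) and on MYC silencing with all libraries in one fit (0.326). The difference of the silencing effects passed for TCF7 (-0.316) and AXIN2 (-0.620) with all libraries in one fit, and for AXIN2 without tet-MYCshRNA vehicle replicate 3 (-0.794). The causes were not tested. Scaling by library size alone shifted the median of all genes on MUC1 silencing by 0.166, and WNT5B then passed at 0.169, a value close to that shift, while WNT5A went from 0.255 to 0.421. The fewest counts per library were 4 for LEF1, 26 for AXIN2 and 42 for DKK3.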
